A study of Homo sapiens with 8 samples.

Results

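The 950 N6-methyladenosine (m6A) peaks described here were those listed in transcripts that the deposited table classes as noncoding, out of 37501 peaks in all. They were selected by that class alone, in rows of the table that each stand for 1 transcript model, and not by any measured value. They fell in 317 of 5953 noncoding rows (5.33%), against 7635 of 19965 coding rows (38.2%). The libraries came from cultures labelled HepG2, a human hepatocarcinoma line. UV cultures received 0.04 J/cm2 and 4 h of recovery, and heat-shock cultures were held at 43 °C for 30 min. HGF cultures received hepatocyte growth factor (HGF/SF, 10 ng/ml) overnight, and IFNg cultures received interferon gamma (200 ng/ml) overnight. Each treatment had 1 anti-m6A immunoprecipitation library and 1 input library, both from polyA-selected RNA broken to short fragments, and no untreated culture was analysed here. With 1 library a group there was no replicate error and no test across samples.

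m6A is placed on nascent RNA by a methyltransferase complex built on METTL3 and METTL14, removed by the demethylases FTO and ALKBH5, and read by proteins of the YTH family. In mRNA it is known for long exons and the region of the stop codon, and its core sequence context is GGAC or a close variant. Noncoding RNAs can carry it as well. MALAT1, an abundant long noncoding RNA of nuclear speckles, and NEAT1, the scaffold of nuclear paraspeckles, are known carriers, and the 18S and 28S ribosomal RNAs each hold it.

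The markers of the labelled line did not stand out. The table gives each row an expression quantile, written here as a percentile from 0 to 100 within its treatment, whose lowest tied value was 45.5 in UV, 32.7 in heat shock, 20.4 in HGF and 18.4 in IFNg. All 9 hepatocyte markers were found, and their percentiles ran between 18.4 and 76.1. Albumin (ALB) stood at 45.5, 57.6, 24.9 and 22.3 in UV, heat shock, HGF and IFNg, and alpha-fetoprotein (AFP) at 45.5, 32.7, 20.4 and 22.4. FGB lay at the lowest tied value in all 4 treatments. Of the 4 bile-duct markers, the keratin KRT7 stood between 99.2 and 99.8, SOX9 between 43.7 and 61, and SPP1 and CFTR at most at 45.5, the lowest tied value of UV. The 4 blood-cell markers reached at most 60.9, and the 5 fibroblast and endothelial markers at most 83.6. The ranks therefore went against the label. The peaks are described as those of cultures labelled HepG2, and the part of cell identity in them was not tested. From the column names alone it is unknown if the quantile was taken from immunoprecipitated RNA, from input or from both.

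Sequences are shown for noncoding sites that could be placed on a transcript model, because they let the m6A context be read directly. Peaks of a row within 100 nt of each other, in any treatment, were joined into 1 site. No source used here names the files' genome build. A row was therefore matched to a GENCODE 29 transcript (GRCh38) only where chromosome, strand, span, and the number and length of every exon with a peak were the same. The nearest coding gene of the row that GENCODE names also had to lie near the transcript, within a set allowance of distance. All of this held for 40 rows with 57 sites. The windows below are 101 bases centred on a site, in lower case, with GGAC and its reverse complement GTCC in capitals.
The first 4 belong to sites with a peak in all 4 treatments, and the last 3 to some of the sites with a peak in 3 treatments. All of the last 3 hold GGAC, while some other sites with a peak in 3 treatments do not. The motif counts further below cover all placed sites.
DNAH17-AS1, chr17:78499896-78499996, plus strand: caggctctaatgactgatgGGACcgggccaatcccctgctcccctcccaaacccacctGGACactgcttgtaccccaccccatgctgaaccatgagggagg
TMEM147-AS1, chr19:35543996-35544096, minus strand: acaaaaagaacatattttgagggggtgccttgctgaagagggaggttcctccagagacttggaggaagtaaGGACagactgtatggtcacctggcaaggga
FGD5-AS1, chr3:14945334-14945434, minus strand: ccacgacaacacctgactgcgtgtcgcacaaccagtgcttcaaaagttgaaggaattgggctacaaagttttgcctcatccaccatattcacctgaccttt
LINC01291, chr2:74930630-74930730, plus strand: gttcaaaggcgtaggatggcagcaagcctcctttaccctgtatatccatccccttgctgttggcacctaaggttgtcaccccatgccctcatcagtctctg
DNAH17-AS1, chr17:78501029-78501129, plus strand: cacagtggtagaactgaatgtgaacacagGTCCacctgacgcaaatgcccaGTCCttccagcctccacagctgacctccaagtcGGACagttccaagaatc
BASP1-AS1, chr5:17216367-17216467, minus strand: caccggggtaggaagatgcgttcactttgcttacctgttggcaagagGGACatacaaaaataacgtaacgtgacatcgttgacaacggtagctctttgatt
GATA2-AS1, chr3:128502011-128502111, plus strand: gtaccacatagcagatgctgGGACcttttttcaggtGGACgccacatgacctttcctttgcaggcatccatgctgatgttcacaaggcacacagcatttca
For 3 further sites in all 4 treatments that lie opposite an annotated exon of a coding gene, 24 bases around the nearest GGAC or GTCC are shown.
CTBP1-AS, chr4:1212117-1212140, plus strand: ctgacagcccGGACcagtctctgc
LQFBS-1 (table name), first site, chr9:131499573-131499596, minus strand: gggcgacagcGTCCatccccaaca
LQFBS-1 (table name), second site, chr9:131497979-131498002, minus strand: cggctcaagtGTCCaggtggagat

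GGAC was present in 34 of the 57 site windows (59.6%, 95% Clopper-Pearson interval 45.8 to 72.4), against 34.3% of all 90988 windows of that length in the same transcripts. The 57 sites came from 40 rows, with 8 sites in DNAH17-AS1, so they are not independent and the interval does not cover that. GTCC, which would be GGAC on the other strand, was present in 33.3% of site windows, against 29.4% of all windows. GGACT, which contains GGAC, was in 24.6% of site windows, against 11.5% of all windows. The sites split by what lay opposite them. At the 12 sites opposite a coding exon, GGAC was found in 5 (41.7%) and GTCC in 8 (66.7%). At the 42 sites with no coding exon at that place, GGAC was found in 28 (66.7%) and GTCC in 10 (23.8%). The windows of both LQFBS-1 sites hold GTCC and no GGAC. A match of letters is a description, and the LINC01291 and FGD5-AS1 windows hold neither.

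The noncoding class was a mixed set. RefSeq gave a gene for 52 of the 317 rows with a peak, of which 26 were lncRNA, 14 transcribed pseudogene, 8 protein coding, 2 rRNA, 1 snoRNA and 1 other ncRNA. Of the 40 rows with a GENCODE model, 22 were antisense, 8 lincRNA and 4 processed transcript. With both sources, 86 rows had an annotation, and the other 231 carry only the name given in the table, usually a cDNA accession. In 7 rows the symbol was also that of a coding row. Of the 317 rows, 104 (32.8%) overlapped a coding row on the opposite strand and none on their own, 13 (4.1%) overlapped one on the same strand, and 200 (63.1%) overlapped none. Among noncoding rows without a peak the opposite-strand share was 17.6%, the same-strand share 10.5% and 72% overlapped none. These 2 sets of rows differ in length. Of the 317 rows, 304 span 1000 bases or more, while the rows without a peak include 1912 that span less than 200. A longer row can overlap more rows, and the shares were not compared at equal length.

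Some peaks of noncoding rows lay at or near the genome base of a peak in the row on the other strand. A peak can be placed in the files' own coordinates when it lies in exon 1 or when its row has the span and exons of a GENCODE model, which held for 485 of the 950 peaks. Of these, 111 lay inside a row of the opposite strand, and in 83 of them that row also listed a peak in the same treatment. For 30 the opposite peak could be placed too. In 24 of the 30 (80%, interval 61.4 to 92.3) it lay within 100 nt, and in 18 within 10 nt. The 24 pairs came from 10 noncoding rows, and 10 belong to AK126532, so they are not independent. Without AK126532, 14 of 20 lay within 100 nt (70%, interval 45.7 to 88.1) and 8 within 10 nt. Their scores differed by a median of 0.215, and the largest difference was 2.91.

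AK126532, a row opposite FEM1A, shows the pairing in every treatment. FEM1A is a substrate receptor of a ubiquitin ligase. In HGF the AK126532 peaks at positions 626, 885, 1268 and 1913 scored 4.76, 2.09, 2.04 and 2.99, and the FEM1A peaks at the same bases, within 1 nt, scored 5.01, 2.05, 2.09 and 2.98. In UV the 3 AK126532 peaks scored 3.24, 2.14 and 2.44, against 3.16, 2.62 and 2.70 for FEM1A. In IFNg the only AK126532 peak scored 2.35, against 2.49 for FEM1A. Every one of the 10 AK126532 peaks thus had its FEM1A counterpart within 1 nt.

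BC038464, opposite the m6A demethylase gene ALKBH5, held the pair with the largest score difference. Its UV peak scored 6.30, against 3.39 for the ALKBH5 peak at the same base. The row also listed peaks in heat shock (5.06) and HGF (2.73), and none in IFNg, where its expression percentile was highest, at 90.4. BC066991, opposite the ubiquitin ligase gene RNF103, scored 4.42 in heat shock and 3.44 in HGF, against 4.41 and 2.36 for RNF103 at the same base. In UV its peak scored 3.72, and the nearest placed RNF103 peak (4.11) lay 217 nt away. AK095133, opposite the extracellular matrix protein gene SVEP1, scored 5.13 in UV and 2.39 in heat shock, against 5.14 and 2.78 for SVEP1 within 1 nt.

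A similar description can be given for AF113016, a noncoding row of 1 exon that lies on the minus strand of chromosome 11 (65023535 to 65027669, as deposited) opposite MALAT1 (65022410 to 65030999, plus strand). For mirrored places the position in AF113016 plus the position in MALAT1 is a constant. The constant was taken from the peaks themselves, as the sum that the largest number of them came within 10 nt of, 5027. The deposited starts and ends give 5261 if neither row had an intron, 234 more, and the MALAT1 peaks concerned lie in exon 2. With the constant at 5027, all 9 AF113016 peaks had a MALAT1 peak of the same treatment within 61 nt, and 5 within 3 nt. Because the constant was fitted to these peaks, the closest matches follow in part from its choice. The highest AF113016 peaks, at 3201 in UV (score 5.37), 3205 in heat shock (4.62) and 3220 in HGF (4.70), faced MALAT1 peaks of 6.08, 4.57 and 5.26. Whether the library kit keeps strand is not stated, so reads of a row and its opposite partner cannot be told apart in such rows. Values without the rows that overlap a coding row are therefore given beside the counts below, as an alternative chosen after seeing the data. That alternative does not remove noncoding rows that lie opposite each other, so AF113016 and MALAT1 stay in it.

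**Figure D1:**
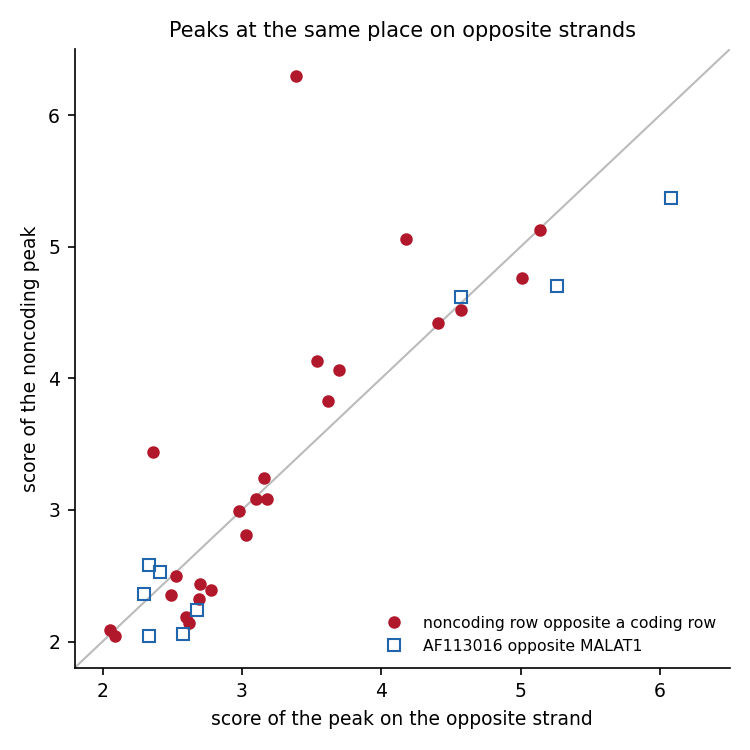
Score of each noncoding peak (vertical axis) against the score of the peak at or near the mirrored place on the opposite strand in the same treatment (horizontal axis), both in the authors' score units. Filled circles are the 24 pairs within 100 nt of a coding row's peak, open squares the 9 AF113016 peaks against MALAT1, and the line marks equal scores. The squares were paired with a constant fitted to the peaks, and not all of them lie at the same base. Most points lie near the line, and the BC038464 peak (6.30 against 3.39) is the farthest above it.

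Noncoding rows carried peaks less often than coding rows in every treatment. In UV, 256 noncoding rows held 362 peaks, which is 4.3% of noncoding rows (95% Clopper-Pearson interval 3.8 to 4.85), against 34.6% of coding rows and 27.7% of all rows. In heat shock, 148 rows held 218 peaks, or 2.49% of noncoding rows, against 27.6% of coding rows and 21.8% of all rows. In HGF, 190 rows held 255 peaks, or 3.19% of noncoding rows, against 26.6% of coding rows and 21.3% of all rows. In IFNg, 88 rows held 115 peaks, or 1.48% of noncoding rows, against 17.4% of coding rows and 13.7% of all rows. The order of the treatments by number of peaks differed between the classes only in the middle, where HGF stood above heat shock for noncoding peaks (255 against 218) and below it for coding peaks (8856 against 9585). Without rows that overlap a coding row, 226, 141, 164 and 77 noncoding peaks remained in UV, heat shock, HGF and IFNg, and the shares of such rows with a peak were 3.69%, 2.07%, 2.89% and 1.32%.

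Noncoding rows ranked lower and were shorter than coding rows, and a difference in the share with a peak was also there among rows above a minimum rank and span. Rank and length were not matched between the classes within those limits, and a span includes introns. In UV, 76.1% of noncoding rows stood at the lowest tied percentile, against 36.4% of coding rows. Among rows between the 75th and 90th percentile, 28.7% of noncoding rows held a peak in UV, against 65.5% of coding rows. The same shares were 9.31% against 54.7% in heat shock, 22.9% against 53.5% in HGF and 12.6% against 40.6% in IFNg. At the 90th percentile or above the share in UV was 14% of noncoding rows, against 70.7% of coding rows. Many highly ranked noncoding rows were very short. Of the 1912 noncoding rows that span less than 200 bases, none held a peak in any treatment, which allows a share of up to 0.157%, and 111 of them stood at the 75th percentile or above in UV. Among rows that span 1000 bases or more and stand at or above the 75th percentile, 39.7% of noncoding rows held a peak in UV (interval 31.7 to 48.1), against 68% of coding rows (66.9 to 69.2). For heat shock the values were 19.4% and 56.6%, for HGF 35.7% and 52.6%, and for IFNg 25.6% and 40.5%, noncoding rows first. The intervals of the classes do not overlap in any treatment, and they cover counting error only.

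**Figure D2:**
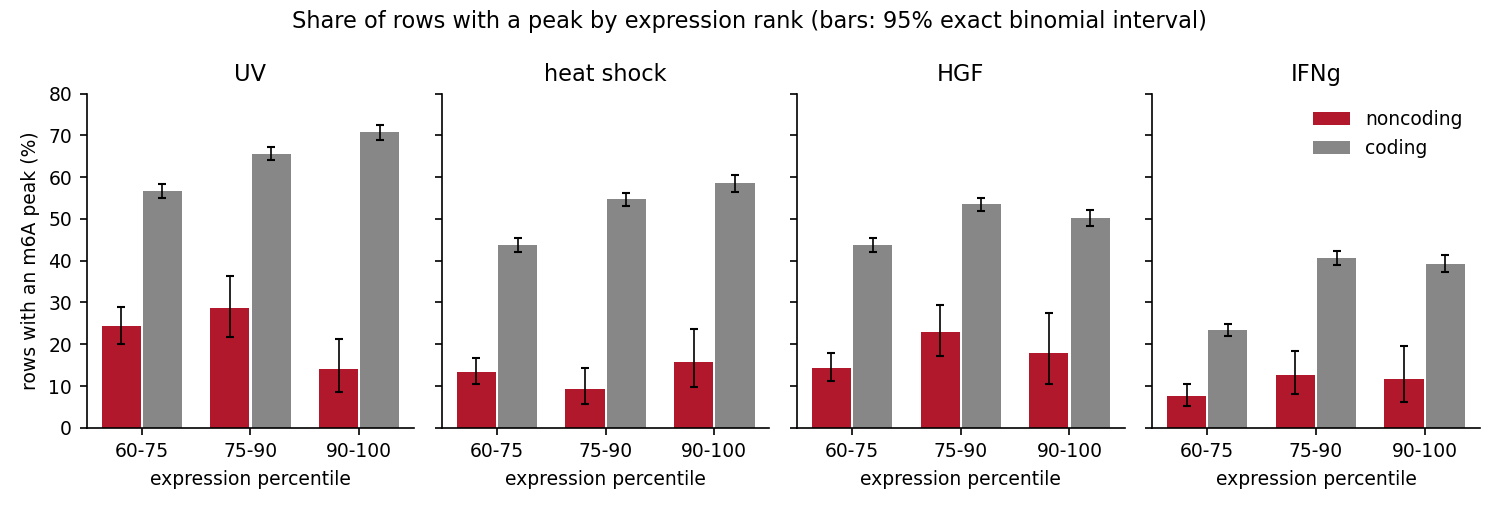
Share of rows with at least 1 m6A peak (vertical axis, percent) in 3 bins of expression percentile (horizontal axis), for noncoding rows (red) and coding rows (grey) in each treatment. Bars carry 95% exact binomial intervals, and the noncoding bar is below the coding bar in all 12 bins, for example 28.7% against 65.5% for the 75th to 90th percentile in UV.

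The peaks of noncoding rows lay in long exons and often in exon 1. The median length of the exon with the peak was 1710 nt in UV, 1852 nt in heat shock, 1645 nt in HGF and 1852 nt in IFNg, against 1392, 1450, 1590 and 1620 nt for coding peaks. The intervals of the medians overlap in HGF (1480 to 1888 nt, against 1555 to 1625 nt) and in IFNg, and among peaks with a score of 3 or more the order turned in both (1637 against 1696 nt in HGF, 1620 against 1836 nt in IFNg). Exon 1 held 46.1% of noncoding peaks in UV, 44% in heat shock, 41.6% in HGF and 38.3% in IFNg, against 17.2%, 15.8%, 10.5% and 8.29% of coding peaks. The number of exons in the rows of each class was not compared. Few noncoding peaks lay within 100 nt of the transcript start: 3.04%, 3.67%, 2.75% and 1.74% in UV, heat shock, HGF and IFNg. The shares of coding peaks there were 4.43%, 4.02%, 1.05% and 0.368%. Exons longer than 1000 nt held between 73% and 80.5% of noncoding peaks, against 61.1% to 67.2% of coding peaks.

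Scores of noncoding peaks were close to those of coding peaks. The score is the authors' own enrichment value, with no formula or log base in the sources used here, and the table lists none under 2. Median noncoding scores were 3.73 in UV, 3.61 in heat shock, 3.21 in HGF and 2.92 in IFNg, against 4.08, 3.73, 3.33 and 3.01 for coding peaks. The UV medians had separate 95% intervals (3.61 to 3.88, against 4.05 to 4.12), while those of heat shock, HGF and IFNg overlapped.

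The noncoding row with the most peaks was dJ1198O21.1 on chromosome 22, with 11 peaks in UV, 8 in heat shock, 7 in HGF and 6 in IFNg. Its expression percentiles were 88.9, 90.1, 82.1 and 85.7. The peaks formed 11 sites, of which 9 were found in 2 or more treatments and 3 in all 4. At the site shared by all 4 at 2696 to 2708, the scores were 3.74 in UV, 2.23 in heat shock, 2.77 in HGF and 2.84 in IFNg. The row showed a repeated pattern of low to moderate scores along its length rather than a dominant peak.

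DNAH17-AS1 (AK127460 in the table), an RNA antisense to a dynein heavy chain gene, came next with 6, 6, 4 and 2 peaks in UV, heat shock, HGF and IFNg. Its site at 1469 to 1503, whose window is printed above with 2 GGAC, scored 2.39, 3.08, 3.59 and 2.92 in those treatments. The site at 2613 to 2651, also printed above, scored 3.96 in UV, 2.91 in heat shock and 4.82 in IFNg, the second highest noncoding score of IFNg, and had no peak in HGF. HGF was the treatment in which the row ranked highest, at the 83.7 percentile, beside 83.6 in IFNg.

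MALAT1 ranked at 99.9 or above in all 4 treatments and held 5 peaks in UV, 7 in heat shock, 1 in HGF and 4 in IFNg. Only its site at 1807 to 1842 was found in all 4, with scores of 6.08 in UV, 4.57 in heat shock, 5.26 in HGF and 2.42 in IFNg. The IFNg score lay at the 23.1 percentile of all IFNg peaks, while the UV score lay at 89.9 among UV peaks. At 510 to 518 the score was 6.60 in heat shock, the highest noncoding score of that treatment, and 3.07 in UV, with no peak in HGF or IFNg. Of its 12 sites, 9 were listed in 1 treatment, with scores between 2.07 and 3.05.

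NEAT1 (NCRNA00084 in the table) differed from MALAT1 in having no site in all 4 treatments. This row is described as the 3' fragment of an mRNA, and CR607557, just before it on the same strand, as the 5' fragment. CR607557 had 0, 1, 1 and 1 peaks in UV, heat shock, HGF and IFNg, at percentiles of 99 to 99.9. Its peaks are not counted in this paragraph. The NCRNA00084 row held 3 peaks in UV, 10 in heat shock, 1 in HGF and 3 in IFNg, at percentiles of 91.9, 99.2, 99.4 and 97.6. The heat-shock peaks ran from position 261 to 13019, and 8 of them had no peak of another treatment within 100 nt. Their scores included 4.8 at 4877, 4.73 at 11277 and 4.10 at 11042. No NEAT1 peak of UV, HGF or IFNg lay beyond position 3392. Rank alone did not order these counts, since HGF had the highest percentile and the fewest peaks. Fewer reads in a library and less methylation of the RNA cannot be told apart here, because the depth of the libraries is unknown.

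**Figure D3:**
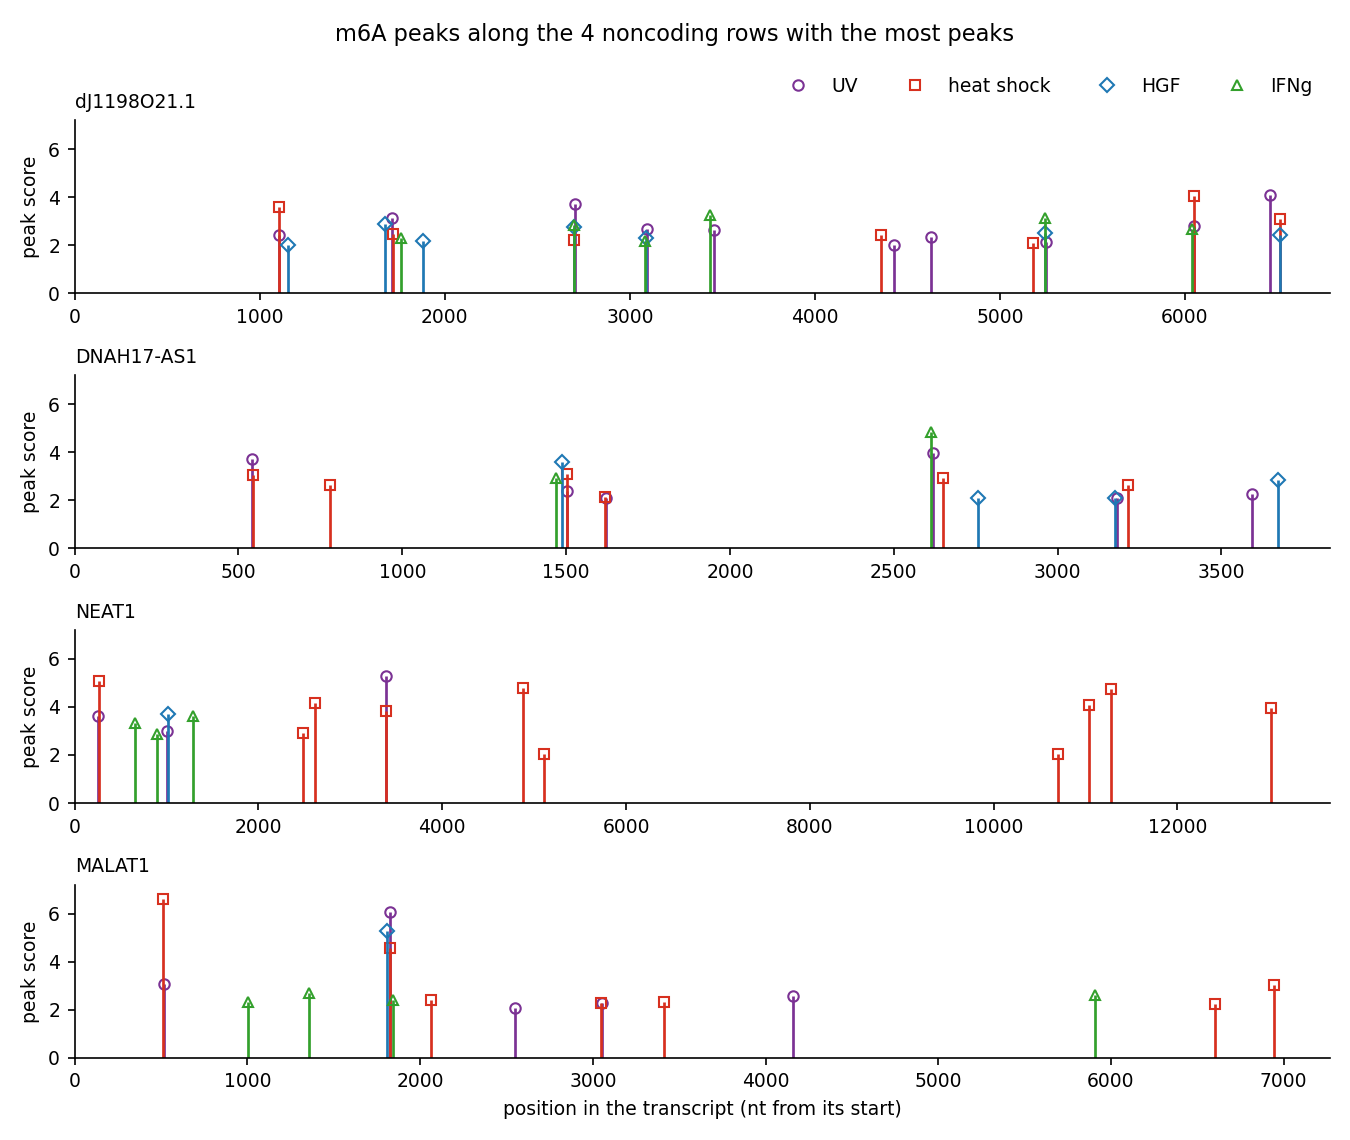
Peaks of the 4 noncoding rows with the most peaks, drawn at their position from the transcript start (horizontal axis, nt) with their score (vertical axis, authors' units), by treatment. At each site the highest peak of a treatment is drawn; NEAT1 shows heat-shock peaks as far as 13019, and MALAT1 shares 1 site at 1807 to 1842 among all 4 treatments.

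KIAA1702 and PRECSIT (C13orf29 in the table) followed. KIAA1702, which overlaps the coding row ZNF451 on the same strand, had 3, 3, 4 and 3 peaks in UV, heat shock, HGF and IFNg. They formed 4 sites, 3 of them in all 4 treatments, and its strongest site at 1511 to 1542 scored 5.02, 3.98, 4.28 and 4.58. PRECSIT had 5, 2, 4 and 1 peaks, and its site in all 4 treatments scored 3.25, 2.35, 3.26 and 2.01.

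Both large ribosomal RNAs were listed with peaks although the libraries were polyA-selected. The 28S row (NR_003287) held 4, 4, 2 and 1 peaks in UV, heat shock, HGF and IFNg and the 18S row (NR_003286) had 3 sites. Both had the highest percentiles, 100 for 28S in every treatment. The scores were mostly low, between 2.04 and 3.91. The highest was the 28S peak at 4262 in UV (3.91), with a heat-shock peak of 2.69 at 4235, and the 18S peak at 125 in HGF scored 3.49. No rRNA site was found in more than 2 treatments. Their copies in the genome are near identical, so the source copy is uncertain.

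Sites were shared less often among noncoding peaks than among coding peaks. The 950 noncoding peaks formed 517 sites, of which 265 were found in 1 treatment, 127 in 2, 74 in 3 and 51 in all 4. The 51 make 9.86% of noncoding sites (95% interval 7.43 to 12.8), against 16.7% of coding sites (16.1 to 17.2) and 16.5% of all sites. Among rows at or above the 75th percentile in all 4 treatments the shares were 12.6% (13 of 103 sites, interval 6.89 to 20.6) and 17.3%, and these intervals overlap. Within the 51 shared sites the positions of the treatments were close, with a median spread of 29 nt, 40 sites within 50 nt and a largest spread of 128 nt. Of the sites in 1 treatment, 133 were listed in UV, 32 in heat shock, 74 in HGF and 26 in IFNg. At the level of rows, 123 of the 317 had peaks in 1 treatment, 79 in 2, 59 in 3 and 56 in all 4. On the same strand, 14 of the 317 rows overlapped another of them, so a peak at 1 place can be counted in more than 1 row.

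Matching between pairs of treatments followed the same order as for coding peaks in each of the 4 treatments. Of heat-shock noncoding peaks, 78.9% had a UV peak within 100 nt, against 83.7% of coding heat-shock peaks. Of IFNg noncoding peaks, 62.6% were matched in HGF, 60.9% in UV and 58.3% in heat shock, against 72.8%, 68% and 66.1% of coding peaks. In the other direction 28.2% of HGF noncoding peaks were matched in IFNg (42.6% for coding peaks), and 19.9% of UV noncoding peaks (27.1% for coding peaks). The number of IFNg peaks, 115, limits these last shares. A match in any of the other 3 treatments was found for 63.3% of UV, 85.3% of heat-shock, 71% of HGF and 77.4% of IFNg noncoding peaks, against 72.2%, 90.9%, 82.7% and 82.4% of coding peaks.

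**Figure D4:**
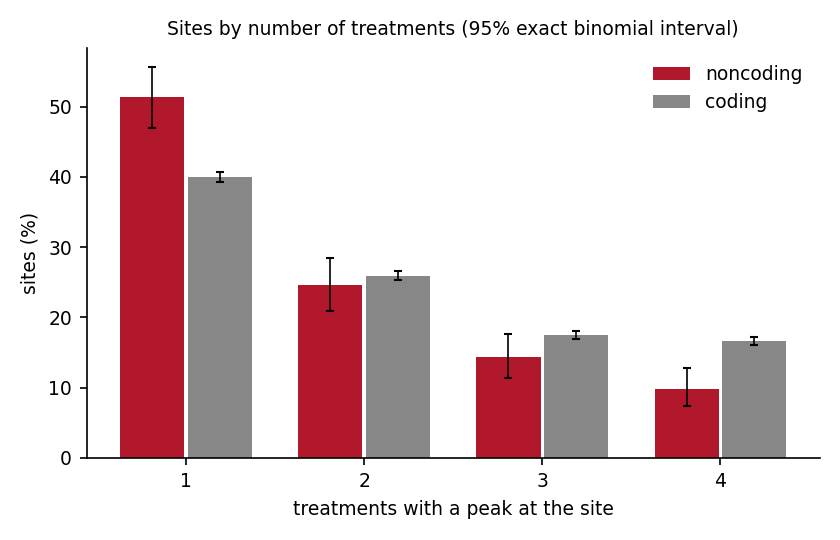
Share of sites (vertical axis, percent) by the number of treatments with a peak there (horizontal axis), for 517 noncoding sites (red) and 17247 coding sites (grey), with 95% exact binomial intervals. Sites in all 4 treatments make 9.86% of noncoding and 16.7% of coding sites.

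The strongest noncoding site shared by all 4 treatments was in FAM13A-AS1 (FAM13AOS in the table), antisense to FAM13A, at position 1842 to 1862. It scored 6.0 in UV, 5.36 in heat shock, 7.27 in HGF and 5.63 in IFNg, the highest noncoding score of both HGF and IFNg. The row itself ranked low to middle, at percentiles 63.4, 50, 55.8 and 52.7. AK123838 on chromosome 12 scored 7.18 in UV, 4.56 in heat shock, 5.37 in HGF and 4.22 in IFNg, and AK095367 on chromosome 16 scored 6.28, 5.48, 4.64 and 4.27. AL713649 scored 6.87, 5.46, 4.61 and 4.07 at position 85 to 106. Neither AK123838, AK095367 nor AL713649 overlapped a coding row. C10orf88B (LOC399815), a pseudogene opposite FAM24B, scored 5.57 in UV, 4.13 in heat shock, 4.42 in HGF and 4.47 in IFNg.

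PVT1, a long noncoding RNA next to the MYC oncogene and the only gene of the liver and cancer list with a peak in a noncoding row of its own name, ranked at 84.4, 88, 93 and 89.8. Its shared site, at 560 to 576 in exon 3, scored 4.94 in UV, 4.97 in heat shock, 5.72 in HGF and 3.83 in IFNg. A further peak at 107 was listed in UV with 2.97. BC014925, opposite the RNA methyltransferase gene BCDIN3D, scored 4.68, 4.92, 6.66 and 3.71 at its shared site. FGD5-AS1 (AK096279), whose 2-exon model and window are given above, scored 4.32, 3.28, 3.99 and 3.21 at 1182 to 1185. TMEM147-AS1 (BC024262) scored 4.12, 3.08, 2.73 and 2.36 at 970 to 1003, and LINC01291 (AK125960) 5.39, 4.88, 3.63 and 3.13 at 2427 to 2480. The LQFBS-1 sites scored 4.27, 3.79, 4.42 and 2.40 at 582 to 615 and 3.26, 2.15, 2.46 and 2.58 at 2180 to 2184. The LQFBS-1 row lies on the strand opposite BAT2L, and RefSeq lists both names as synonyms of the coding gene PRRC2B, so the row is called by its table name only. GATA2-AS1 (CR595360), opposite the transcription factor gene GATA2, had its site at 1278 to 1295 in 3 treatments, with scores of 3.00 in UV, 4.44 in HGF and 3.54 in IFNg and no listed peak in heat shock.

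Among the 15 rows with the highest lowest score over the treatments, the lowest score was that of IFNg in 10 and of heat shock in 5. The highest was that of HGF in 6, UV in 5, heat shock in 3 and IFNg in 1. Because scores have a different range in each treatment, they were also compared as percentiles of all peaks of that treatment. Of the 51 shared sites, 7 stood 25 points or more lower in IFNg than in each of the others (13.7%, beside 15% of all sites shared by 4 treatments), and 2 stood that much higher in IFNg (beside 2.05%). In HGF 2 were higher and 1 lower (beside 2.97% and 3.11%). In UV none was higher and 1 lower (beside 3.59% and 1.4%), and in heat shock none was either (beside 0.957% and 4.75%). These shares are near those of all sites. CTBP1-AS, antisense to the corepressor gene CTBP1, showed the IFNg pattern, with scores of 7.11 in UV, 5.36 in heat shock, 3.52 in HGF and 2.12 in IFNg. The single UV exception was CR594735, with 2.07 in UV, against 4.87 in heat shock, 4.83 in HGF and 3.50 in IFNg.

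**Figure D5:**
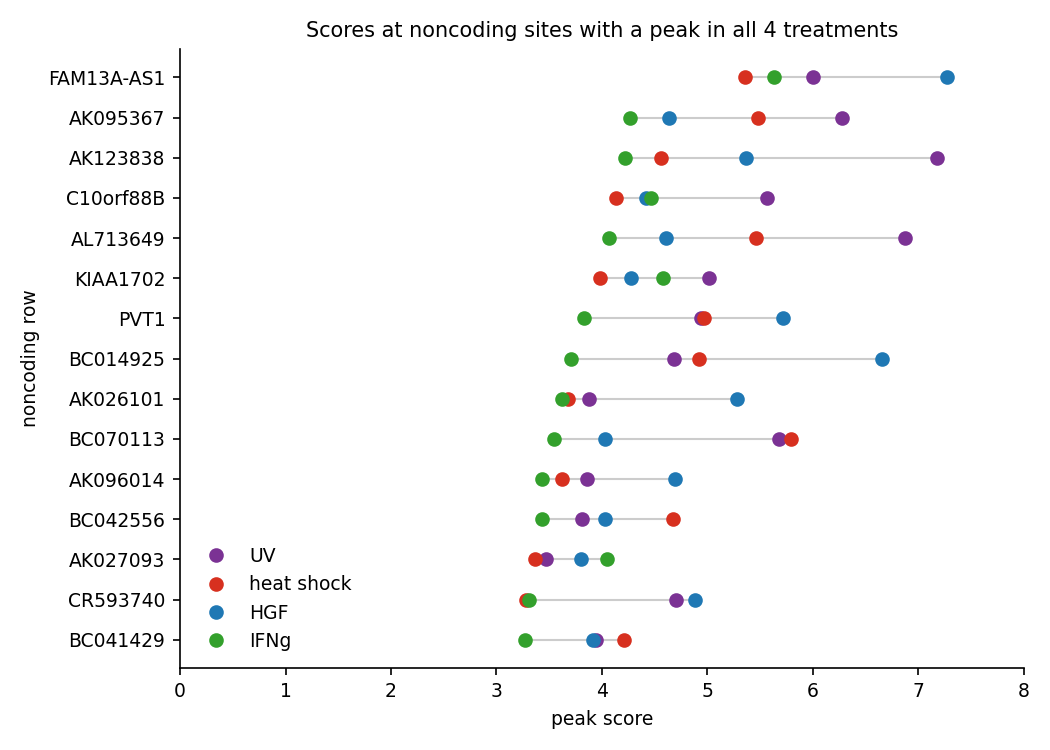
Scores (horizontal axis, authors' units) at the strongest site with a peak in all 4 treatments, for the 15 noncoding rows whose lowest score over the treatments was highest. Each row is a transcript named as in RefSeq or GENCODE where one matched, each point a treatment. FAM13A-AS1 stands at the top, with 5.36 to 7.27.

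Several of the highest scores belonged to sites not listed in all 4 treatments. CR598733, opposite OIP5, a gene of the Mis18 centromere complex, had the highest UV score, 7.33 at position 75, with 5.37 in heat shock, 2.52 in HGF and none in IFNg. BASP1-AS1 (FLJ34047), whose window with GGAC is shown above, scored 6.13 in UV, 6.27 in heat shock and 6.90 in HGF and had no peak in IFNg, where its percentile was 74.3, against 63.3 in UV. AK094154 scored 5.96, 6.57 and 3.72 in UV, heat shock and HGF, and AK056929 scored 6.87, 4.49 and 4.82 at 765 to 834, both without an IFNg peak. AK022851 scored 5.77 in UV, 4.03 in heat shock and 5.88 in HGF. Among rows with a site in all 4 treatments, BC073817 scored 6.0 and AL833509 5.97 in heat shock, both in its top 5, against 2.35 and 2.92 in IFNg. AK027179, opposite the transcription factor gene ATF7, scored 4.45 in IFNg, the fifth highest there, beside 5.70 in UV, 4.45 in heat shock and 2.80 in HGF. BDNF-AS (BDNFOS), antisense to the neurotrophin gene BDNF, scored 5.82 in HGF at position 520 and was listed in no other treatment, although its percentile was lowest there, at 44.2, against 67.2 in UV and 74.4 in heat shock.

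The hosts of small nucleolar RNAs, whose introns release snoRNAs that guide RNA modification, held peaks in UV alone. Of 10 such host genes with a noncoding row under their name, 4 held a peak, beside 5.33% of all noncoding rows and 38.2% of coding rows. The 5.33% covers noncoding rows of every length and rank. Among noncoding rows that span 1000 bases or more, at or above the 75th percentile, 39.7% held a peak in UV. SNHG1 had a UV peak of 3.44, SNHG15 (C7orf40) of 4.67, SNHG5 of 2.96, and SNHG7 had UV peaks of 2.25 and 2.69. GAS5, SNHG6, SNHG8 and ZFAS1 ranked at 87.3 or above in every treatment and had none. The small RNAs themselves were nearly all without peaks: of 336 rows with a SNORD, SNORA or SCARNA symbol, 2 held one. Beside them, none of the 1912 noncoding rows that span less than 200 bases held a peak. Of noncoding rows from 200 to under 1000 bases, 3.85% did. SNORD17 scored 3.47 in HGF, and SCARNA17 scored 2.90 in heat shock and 2.10 in HGF. RMRP and RPPH1, the RNA subunits of the ribonucleases MRP and P, ranked at 99.9 or above in all 4 treatments and had no peak. The part of length in the lack of peaks in all these rows was not tested.

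The counts of the other lists stand beside the same 5.33% of all noncoding rows. Of the nuclear list, 4 genes had a noncoding row under their name or a synonym and 2 a peak (MALAT1 and NEAT1), while HOTAIR and KCNQ1OT1, at percentiles of 66.1 or lower, had none. Of the liver and cancer list 5 had a noncoding row and 1 a peak. HULC, a liver long noncoding RNA, stood at the lowest tied percentile in all 4 treatments. Of the microRNA hosts, 3 had a noncoding row and only MIR210HG, a transcript known to rise in hypoxia, had a peak, in HGF. No gene of the cytoplasmic list had a noncoding row under its name. H19, whose row the table classes as coding, held 1, 2 and 2 peaks in UV, heat shock and HGF and was not counted.

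Rows under other names were then sought by place, after these counts were seen. A noncoding row was taken where it lay on the strand of a list gene and between the same nearest coding genes as in GENCODE 29. The search gave 4 rows with a peak. It also gave rows without one: 1 at CRNDE, 2 at MIR17HG and 1 at MIR31HG. At SNHG16 it gave SNORD1A and SNORD1B as well, of 74 and 86 bases and without a peak, so place alone is a loose rule. The row dJ1198O21.1, which holds the most peaks of all noncoding rows, lies where TUG1, a gene of both the nuclear and the cytoplasmic list, does, between MORC2 and SMTN, and spans 9747 bases, against 10151 for TUG1. CR598733, with the highest UV score, lies where OIP5-AS1 of the cytoplasmic list does, between CHP1 and NUSAP1, and spans 25701 bases, against 25748. AK026101 lies where HEIH of the liver and cancer list does, between MGAT1 and ZFP62, and spans 1637 bases, against 1652. CR601950 lies where the snoRNA host SNHG16 does, between PRCD and ST6GALNAC2, spans 7505 bases, against 7583, and had 1 peak, in UV (score 2.31). Place and span are all that ties these rows to those names, and the exons were not matched.

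Noncoding rows with a peak ranked lower than coding rows with a peak. Their median percentile was 63.3 in UV, 67.1 in heat shock, 66.8 in HGF and 70.5 in IFNg, against 79.5, 80.3, 79.5 and 83.1. Within the 317 rows, those with a peak in a treatment ranked above those with a peak only elsewhere. In IFNg the medians were 70.5 and 61, in heat shock 67.1 and 60.8, in HGF 66.8 and 61.6 and in UV 63.3 and 56.7. Presence of a peak thus moved with rank, and the part of detection in it was not tested. In cultures, fewer cells of a type and less RNA per cell cannot be told apart from such ranks.

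Of the 317 rows, 266 reached the 60th percentile in at least 1 treatment and 51 did not. A row could pass this limit only through the treatment in which it then stood above the others. The counts of rows above are thus partly set by the limit, as are the shares beside them. Over the 4 treatments the percentile of these 266 ranged by a median of 14.1 points, against 10.5 points for coding rows with a peak that passed the same limit. In UV, 10 of the 266 stood 10 points or more above all other treatments (3.76%, beside 1.93% of all rows) and 19 that much below (7.14%, beside 2.17%). In heat shock 8 stood above (3.01%, beside 2.87%) and 9 below (3.38%, beside 3.98%). In HGF 7 stood above (2.63%, beside 1.57%) and 3 below (1.13%, beside 1.39%). In IFNg 7 stood above (2.63%, beside 3.39%) and 7 below (2.63%, beside 3.02%). Among all noncoding rows past the same limit, 6.43% stood above and 6.43% below in UV, so the members' 7.14% below is near the share of their class. For that class the shares above were 10.2% in heat shock, 4.96% in HGF and 7.29% in IFNg. The shares below were 2.71%, 2.09% and 4.11%. The members' share above was thus lower than that of their class in every treatment, and the cause was not tested. Percentiles under 45.5 were raised to it for this comparison, the highest of the lowest tied values.

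Some of the largest rank shifts are given here beside the treatments in which those rows had peaks. The noncoding row with the symbol ROCK1, a kinase gene whose symbol is also on a coding row, stood at 63.2 in UV, against 88.7 in heat shock, 89.2 in HGF and 92.9 in IFNg, and its only peak was in IFNg. MIR210HG stood at 45.5 in UV and between 63.3 and 67.5 in the others, and UGDH-AS1 at 54 in UV, against 70.8, 75 and 71.6. BC062753 and BC024732 stood highest in UV, at 81 and 83.1, against at most 68.2 in any other treatment, and both had peaks in UV and HGF. AK023685 was highest in heat shock, at 77.8, against 54.5 in UV, 56.7 in HGF and 58.7 in IFNg, but its 2 peaks were in UV. AK021563 was lowest in heat shock, at 65.4, against 92 in UV, 84 in HGF and 94.9 in IFNg.

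AK026101 on chromosome 5 combined a rank shift with a site in all 4 treatments. It stood at 72.8 in UV, 49.5 in heat shock, 71.8 in HGF and 83.6 in IFNg. Its site at 1031 to 1033 scored 3.88, 3.68, 5.28 and 3.62, so the treatment with the lowest rank did not have the lowest score. BC062328 stood highest in HGF, at 87.5, against 69.7 or lower elsewhere, with a peak in UV alone. AK056817 stood highest in IFNg, at 82.9, against 57.5, 62.1 and 64.7, and had 4, 2 and 2 peaks in UV, heat shock and HGF but none in IFNg. In BC062328, AK023685 and AK056817 the treatment of highest rank was thus one without a peak.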

How the data were processed

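The members and the gene lists were chosen with earlier results of these data known. The values came from 1 deposited table of 25918 rows, with UCSC-style identifiers, covering 8 libraries, 1 a group, so no p-value is given and intervals cover counting error only. The expression quantile, a fraction from 0 to 1 in the authors' table, is a rank and is written as a percentile. The peak score is the authors' own, per the file headers. The table holds no counts, so the depth is unknown. Aligner, peak caller, strand handling and build are not given in the sources used here. Starts are counted from 1.

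Peaks of a row within 100 nt were joined into sites, tested on simulated data. Shares have Clopper-Pearson 95% intervals and medians exact order-statistic intervals. A count of 0 was taken to allow 3 counts. Names came from RefSeq and GENCODE 29. The noncoding peaks carry no transcript segment in the table, so none is given. Genes named were members of 6 lists (nuclear, liver and cancer, cytoplasmic, snoRNA-host, microRNA-host, and polymerase III and structural RNAs) with a peak, the 5 highest scores a treatment, up to 15 rows with the highest lowest score over 4 treatments, the 5 rows with most peaks and the 5 largest rank shifts a treatment and direction. The text gives part of these. RMRP, RPPH1, SNORD17, SCARNA17, PRECSIT, the rRNAs, FGD5-AS1, LINC01291, TMEM147-AS1, GATA2-AS1, LQFBS-1, CR594735, CR607557, H19, the rows found by place and the rows with opposite-strand pairs were named after their values were seen. Computations used Python 3.11.15 with pandas 2.3.3 and SciPy 1.17.1.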

Additional observations from a re-analysis of the deposited data

How the results depend on the processing

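No paired analysis was possible because each group holds 1 library, and for the same reason no replicate could be left out. Of 132 values recomputed for 26 results, 100 stayed within the interval of the reported value (counts within 1.5 times), 30 moved further and 2 changed the sign of the difference between noncoding and coding. Taking 1 row per symbol, dropping symbols that are also on coding rows, joining within 50 or 200 nt and raising percentiles to the highest floor moved none of their results that far. The share of noncoding rows with a peak was below that of coding rows under every alternative. With scores of 3 or more it was 3.65%, 2.07%, 2.25% and 0.79% in UV, heat shock, HGF and IFNg. Among rows above the lowest tied percentile it was 15.8%, 6.18%, 5.93% and 2.67%, and at or above the 75th percentile 22%, 11.7%, 21.3% and 12.2%. Among rows spanning 1000 bases or more, an alternative chosen after seeing the data, it was 6.67%, 3.86%, 4.94% and 2.38%. Without rows that overlap a coding row, likewise chosen later, it was 3.69% in UV and 2.07% in heat shock, with 226 peaks in UV, 141 in heat shock and 164 in HGF, and 335 sites. With scores of 3 or more, 149 HGF and 50 IFNg noncoding peaks were left, 6.38% of sites were in all 4 treatments, and median scores were 4.32, 4.12, 3.96 and 3.52. Under that minimum the median percentile in HGF was 63.9. The median exon length was then 1637 nt in HGF and 1620 nt in IFNg, against 1696 and 1836 nt for coding peaks, which turned the order, and the cause was not tested. Without replicates and with unknown depth, a peak not listed in a treatment is not shown to be absent there.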
